A study of Mus musculus with 12 samples.

Results

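The 7 mouse genes of the serum amyloid A and orosomucoid families, Saa1, Saa2, Saa3, Saa4, Orm1, Orm2 and Orm3, were followed in the liver of mice aged 2 weeks. They were chosen by name: each was read from the transcript cluster annotated to that gene alone, taking the cluster of highest mean over the 12 arrays, and they are 7 of the 19938 genes the array names. The livers came from 4 genotypes with 3 arrays each, lettered A, B and C. The Stat3Fl/Fl livers carried floxed Stat3 alleles, the Stat3Δhc livers are labelled Stat3 knockouts, and the other 2 genotypes, Stat3Fl/Fl Mdr2-/- and Stat3Δhc Mdr2-/-, carried the same Stat3 alleles on a knockout of Mdr2. The labels give the same age for all 4 genotypes and name no treatment. The transgene that deleted Stat3, the cells it reaches, and whether an array is 1 animal or a pool are not given in the sources used here, so p-values measure the spread between arrays, which may be technical. The study asked which pathways change in Stat3Δhc Mdr2-/- mice, which develop cholestasis and bile acid injury.

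Serum amyloid A proteins and orosomucoid are plasma proteins of the acute phase response, the change in hepatocyte secretion that follows infection or tissue injury. Interleukin 6 and related cytokines signal through the gp130 receptor to STAT3, while interleukin 1 and tumour necrosis factor signal through NF-κB, and C/EBP transcription factors act at many acute phase promoters. Serum amyloid A proteins travel on high-density lipoprotein, and orosomucoid, or alpha-1-acid glycoprotein, binds basic drugs and lipids in plasma. Mdr2, encoded by Abcb4, carries phospholipid into bile, and mice that lack it serve as a model of sclerosing cholangitis.

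Values are log2 signals, and the arrays' medians lay between 6.01 and 6.14. Titles set the groups. For the 6 Mdr2-/- arrays another label, the source name, gives the opposite Stat3 genotype, but Stat3 signal followed the titles, at 9.19 to 9.54 in the 6 Stat3Fl/Fl arrays with or without Mdr2 and 7.69 to 8.12 in the 6 Stat3Δhc arrays. Abcb4 signal was 10 to 10.28 where Mdr2 was intact and 8.87 to 9.36 in the 6 Mdr2-/- arrays. Hepatocyte markers averaged 12.46 to 12.79 in every array. The 3 Stat3Fl/Fl Mdr2-/- arrays and array A of Stat3Δhc Mdr2-/- had high Xist (11.27 to 11.34) and low Y-linked transcripts, and the other 8 arrays had the opposite pattern. Every comparison with the Stat3Fl/Fl Mdr2-/- arrays is therefore also largely one between these patterns. For Mdr2 loss in Stat3Fl/Fl liver it is wholly so, and Mdr2 loss and the pattern cannot be told apart there. Only Stat3Δhc Mdr2-/- liver holds both patterns, so a covariate for the pattern is estimated from its array A against B and C. In whole liver, fewer cells of a type and less RNA per cell cannot be told apart.

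Saa1 and Saa2 encode the acute phase serum amyloid A proteins that the liver secretes in inflammation. They lie next to each other on chromosome 7, and their probes may not tell their transcripts apart. The 250 bases upstream of their annotated start sites (RefSeq, GRCm38.p6) are shown because these promoters share 94.8% of aligned bases. Saa1 is at chr7:46742981-46743230 on the minus strand and Saa2 at chr7:46751583-46751832 on the plus strand. Capitals mark the letters TTGCNNAA, a C/EBP-type motif.
Saa1: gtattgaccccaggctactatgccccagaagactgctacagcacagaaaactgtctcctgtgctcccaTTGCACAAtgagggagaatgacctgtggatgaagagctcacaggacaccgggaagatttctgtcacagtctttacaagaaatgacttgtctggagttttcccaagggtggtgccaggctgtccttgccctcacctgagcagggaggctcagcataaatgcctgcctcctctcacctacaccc
Saa2: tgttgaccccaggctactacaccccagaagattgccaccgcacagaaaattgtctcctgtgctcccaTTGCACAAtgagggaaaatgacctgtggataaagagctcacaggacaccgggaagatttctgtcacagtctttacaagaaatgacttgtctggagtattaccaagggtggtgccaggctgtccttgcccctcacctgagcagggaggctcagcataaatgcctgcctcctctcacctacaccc
The motif is TTGCACAA in both, at bases -182 to -175 in Saa1 and -183 to -176 in Saa2, counted from the annotated start site.

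Saa2 was highest in the livers that kept Stat3 and lacked Mdr2. Its log2 signal in arrays A, B and C was 6.09, 8.31 and 8.49 in Stat3Fl/Fl Mdr2-/- liver and 5.42, 5.22 and 5.89 in Stat3Fl/Fl liver. It was 3.80, 3.58 and 4.35 in Stat3Δhc liver and 4.21, 4.01 and 3.61 in Stat3Δhc Mdr2-/- liver. All 6 Stat3Δhc values, with or without Mdr2, lay below all 6 floxed values and between the 12.4th and 21.5th percentiles of their arrays. The group means were 7.63 ± 1.34, 5.51 ± 0.34, 3.91 ± 0.40 and 3.95 ± 0.30 in the same order (SD, n = 3), and only the last 2 neighbours in the order of levels overlapped.

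Saa1 had the same order of genotypes at the top. It read 5.17, 7.32 and 7.95 in Stat3Fl/Fl Mdr2-/- liver and 5.39, 4.54 and 4.73 in Stat3Fl/Fl liver, so these 2 groups overlapped through array A of the former. The Stat3Δhc arrays read 4.0, 4.16 and 3.81 and the Stat3Δhc Mdr2-/- arrays 4.08, 4.27 and 3.60, all 6 below the floxed values. Saa1 passed the 40th percentile of its array only in arrays B and C of Stat3Fl/Fl Mdr2-/- liver, short of the 3 arrays required for testing.

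Saa3 is an inducible serum amyloid A made in mice by macrophages, adipocytes and epithelia as well as by injured liver. Its signal was 6.53, 6.62 and 6.93 in Stat3Fl/Fl liver and 6.52, 6.38 and 6.52 in Stat3Δhc liver. With the Mdr2 knockout it was 6.81, 7.53 and 8.0 in Stat3Fl/Fl liver and 8.04, 6.96 and 6.81 in Stat3Δhc liver. Unlike Saa2, its highest and second highest arrays came from opposite Stat3 genotypes, and neighbouring groups overlapped in its order of levels except the 2 lowest, Stat3Fl/Fl above Stat3Δhc, which were apart by less than 0.01 (6.53 against 6.52). The same 2 arrays, C of Stat3Fl/Fl Mdr2-/- and A of Stat3Δhc Mdr2-/-, also had the highest means of 8 neutrophil markers, 6.41 and 6.03 against 5.33 to 6.0 in the others. Of these markers 2 lay below the 40th percentile of every array in each Mdr2-/- genotype, and none of the 6 tested passed the test in any comparison by limma. Whether these cells had a part in the Saa3 values was not tested.

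Saa4 encodes the constitutive serum amyloid A, which circulates on high-density lipoprotein without inflammation. Its signal lay between the 92.1th and 97.1th percentiles of each array. It read 10.40, 9.63 and 9.93 in Stat3Fl/Fl liver, 10.51, 10.48 and 10.70 in Stat3Δhc liver, 9.81, 10.15 and 9.93 in Stat3Fl/Fl Mdr2-/- liver, and 9.53, 9.68 and 9.22 in Stat3Δhc Mdr2-/- liver. Stat3Δhc liver was thus the highest group without the Mdr2 knockout and the lowest with it, and neither of these overlapped its neighbour in the order of levels. The 2 floxed groups overlapped, at means of 9.98 ± 0.39 and 9.96 ± 0.17 (SD, n = 3).

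The orosomucoid genes lie in the order Orm1, Orm3, Orm2 on chromosome 4. The upstream 250 bases of Orm2 (chr4:63362199-63362448, plus strand) and Orm3 (chr4:63355908-63356157, plus strand) are shown because they share 85.5% of aligned bases. Neither gene met the condition for testing. With no filter on low values Orm2 rose with Mdr2 loss in floxed liver (limma adjusted p = 0.0178). That rise did not pass with each Stat3Fl/Fl array left out in turn, or without array B of Stat3Fl/Fl Mdr2-/- liver (0.0512 to 0.0605). Nor did it pass with the Xist and Y-linked pattern as a covariate (0.465) or with trend and robust eBayes (0.0777). Orm3 lay under the 40th percentile in every array, so a difference between these genes cannot be set against their promoters. Capitals mark the same C/EBP-type letters.
Orm2: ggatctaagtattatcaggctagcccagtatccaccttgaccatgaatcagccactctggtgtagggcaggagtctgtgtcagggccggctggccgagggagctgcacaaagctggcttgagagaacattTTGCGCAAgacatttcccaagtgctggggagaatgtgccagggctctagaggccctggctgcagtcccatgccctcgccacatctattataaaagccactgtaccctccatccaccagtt
Orm3: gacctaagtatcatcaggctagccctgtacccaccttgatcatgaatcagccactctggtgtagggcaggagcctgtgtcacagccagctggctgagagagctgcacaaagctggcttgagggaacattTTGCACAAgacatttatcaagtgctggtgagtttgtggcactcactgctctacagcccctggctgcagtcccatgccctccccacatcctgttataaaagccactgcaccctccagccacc
The motif spans bases -120 to -113 in Orm2 and -121 to -114 in Orm3, and its middle letters differ between them.

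Orm2 was raised in 1 genotype, and unevenly. It read 5.38, 7.37 and 9.02 in Stat3Fl/Fl Mdr2-/- liver, the widest spread within a group of any of the 7 genes (SD 1.82). The Stat3Fl/Fl arrays read 4.75, 4.67 and 4.80, the Stat3Δhc arrays 4.11, 4.69 and 4.34 and the Stat3Δhc Mdr2-/- arrays 4.30, 4.47 and 4.35. Those 9 arrays all lay under the 40th percentile, below the lowest Stat3Fl/Fl Mdr2-/- array. That array, A, was itself under it, at the 36.4th percentile. Orm2 thus passed the 40th percentile in only 2 arrays, short of the 3 required for testing.

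Orm1, like Orm2, was highest in array C of Stat3Fl/Fl Mdr2-/- liver. It read 6.56, 5.57 and 6.27 in Stat3Fl/Fl liver and 5.99, 7.05 and 8.89 in Stat3Fl/Fl Mdr2-/- liver. The Stat3Δhc arrays read 5.13, 5.38 and 5.97 and the Stat3Δhc Mdr2-/- arrays 4.87, 5.08 and 5.34. Every group overlapped its neighbour in the order of levels, although the lowest group and the highest did not overlap. Orm3 stayed between 4.16 and 5.09 in all 12 arrays, under the 40th percentile in each, so a difference in it was not detectable with these probes.

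**Figure D1:**
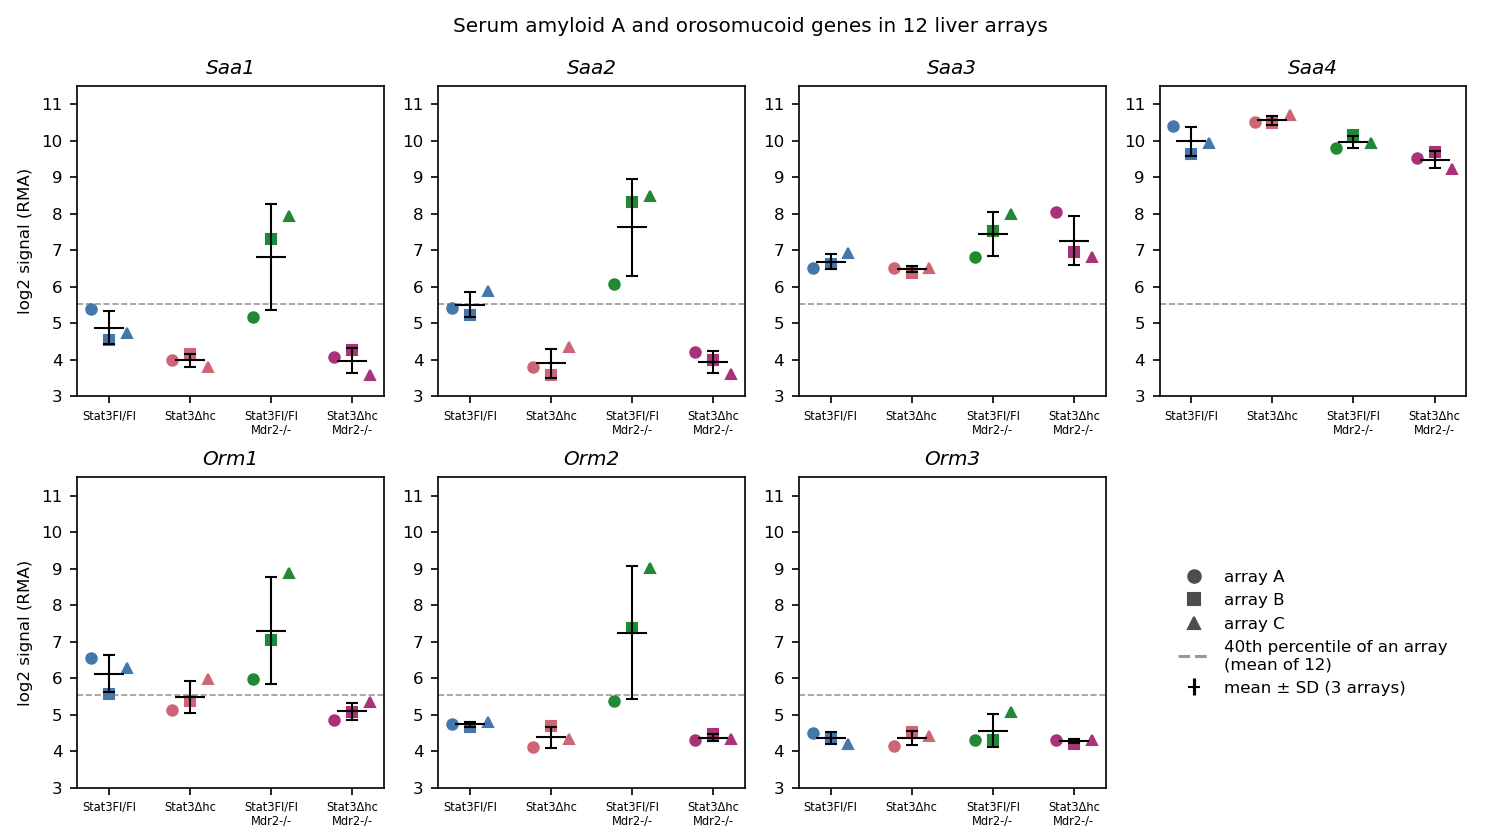
Log2 signal (vertical axis) of the 7 genes in each of the 12 arrays by genotype, with horizontal bars for the mean and whiskers for the SD of 3 arrays. Saa1, Saa2, Orm1 and Orm2 stand highest in arrays B and C of Stat3Fl/Fl Mdr2-/- liver, while Orm3 stays below the dashed 40th percentile line.

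The Stat3Fl/Fl Mdr2-/- arrays differed among themselves in a shared way. Array C was the highest of the 3 for 6 of the 7 genes and array A the lowest for 6 of 7. A2m, another acute phase gene, had the same order there, at 7.19, 8.22 and 9.31. Results on these genes therefore rest on a group whose SD was between 1.34 and 1.82 for Saa1, Saa2, Orm1 and Orm2, against at most 0.51 in the other groups.

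On the Mdr2 knockout, Saa2 and Orm1 were lower where Stat3 was deleted. Saa2 fell by 3.68 on the log2 scale (95% interval -4.72 to -2.65, limma adjusted p = 0.00185), and Orm1 fell by 2.21 (interval -3.35 to -1.06, adjusted p = 0.031). These are log2 changes without a fold, because all 3 arrays of the deleted group lay under the 40th percentile. Saa3 differed by -0.18 (interval -0.84 to 0.48, adjusted p = 0.72) and Saa4 by -0.49 (interval -0.86 to -0.11, adjusted p = 0.102), and neither passed.

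Thus 2 of the 4 tested members fell, although Saa2 met the condition for testing only through its 3 Stat3Fl/Fl Mdr2-/- arrays and 1 Stat3Fl/Fl array, the groups where it is high. Beside this stood 5.77% of the 13977 tested genes, called in either direction. Ranges did not overlap for 3 of these 4, against 28.6% of tested genes. With no filter on low values, which brings in the other 3 members among 19938 genes, Saa1 fell by 2.83 (adjusted p = 0.0106) and Orm2 fell by 2.88 (adjusted p = 0.0219), while Orm3 did not pass (-0.29, adjusted p = 0.327). That made 4 of 7 lower, beside 2.96% of all genes called.

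The Orm1 call was lost without array B of Stat3Fl/Fl Mdr2-/- or array B or C of Stat3Δhc Mdr2-/- liver (adjusted p = 0.0728, 0.0796 and 0.0621), and those of Saa1 and Orm2 without that same array B of Stat3Fl/Fl Mdr2-/- liver (0.0562 and 0.0761). Orm2 was also lost without array B or C of Stat3Δhc Mdr2-/- liver (0.0619 and 0.0589). With the Xist and Y-linked pattern as a covariate, which sets array A of Stat3Δhc Mdr2-/- against the 3 Stat3Fl/Fl Mdr2-/- arrays, Saa2 differed by -3.42 (adjusted p = 0.0784) and Orm1 by -2.43 (adjusted p = 0.261), and with no filter Saa1 and Orm2 no longer passed either (adjusted p = 0.218 and 0.264). Orm1 and Orm2 were also lost with trend and robust eBayes (adjusted p = 0.0685 and 0.0679), and Orm1 in a fit to the compared groups alone (0.0867). In the 4 arrays of that pattern Saa2 read 4.21 with the deletion and 6.09 to 8.49 without it. Of 8 macrophage markers, Adgre1 and Csf1r fell in the same comparison (by 0.56 and 0.54, adjusted p = 0.0461 and 0.0228), and the mean of all 8 ran from 8.40 to 8.72 against 8.78 to 8.93. Of these markers only Cd5l was higher, by 0.17, and it did not pass. Of 6 stellate cell markers Lrat and Reln fell (by 0.93 and 0.58, adjusted p = 0.00426 and 0.00366), with means of 8.36 to 8.44 against 8.67 to 8.71. Acta2 differed by -0.56, while Des, Pdgfrb and Col1a1 were higher by 0.01, 0.12 and 0.24, and none of these passed. None of 5 endothelial markers passed, but their means, 8.78 to 9.07 against 9.19 to 9.37, did not overlap. The means of 5 lymphocyte markers, 5.68 to 5.92 against 6.0 to 6.10, did not overlap either. Of these, 4 were tested and none passed, with Cd3e higher by 0.17. The part of these cell types in the Saa and Orm values was not tested.

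**Figure D2:**
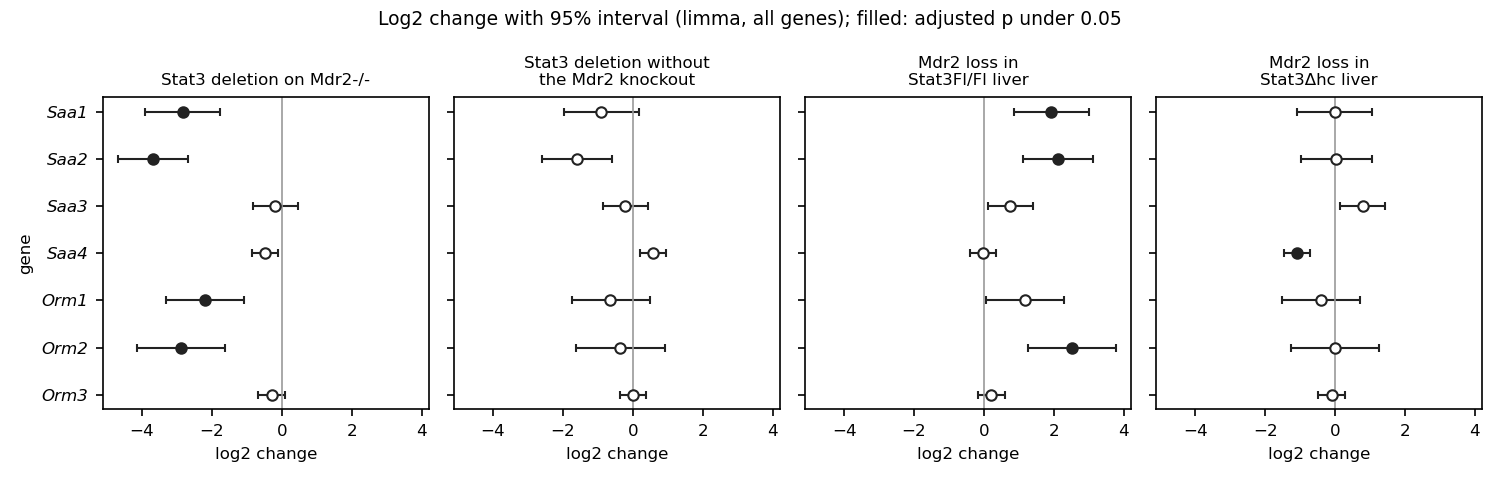
Log2 change (horizontal axis) of the 7 genes with its 95% interval in 4 comparisons, from the limma fit to all 19938 genes with no filter on low values; filled points passed adjusted p under 0.05. Saa1, Saa2, Orm1 and Orm2 are filled on the left for Stat3 deletion on Mdr2-/-. Saa1, Saa2 and Orm2 are filled for Mdr2 loss in Stat3Fl/Fl liver, and Saa4 for Mdr2 loss in Stat3Δhc liver.

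Stat3 deletion in liver with Mdr2 intact gave no call among the members. Saa2 was lower by 1.60 on the log2 scale (interval -2.63 to -0.57, unadjusted p = 0.00532, limma adjusted p = 0.097) and Saa4 higher by 0.58 (interval 0.20 to 0.96, unadjusted p = 0.00538, adjusted p = 0.0975). Saa3 differed by -0.22 (adjusted p = 0.792) and Orm1 by -0.64 (adjusted p = 0.618). In all, 0 of 4 members passed after adjustment and 2 at an unadjusted p under 0.05, beside 2.58% of tested genes called. Ranges were apart for 3 of 4, Saa3 included, against 25.1% of tested genes.

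With no filter, Saa1 differed by -0.90 (adjusted p = 0.512), Orm2 by -0.36 (0.874) and Orm3 by 0.01 (0.995), and 0 of 7 passed beside 1.3% of genes. Leaving out array A of Stat3Fl/Fl liver brought Saa4 to 0.79 higher (adjusted p = 0.0108). Leaving out array A of Stat3Fl/Fl Mdr2-/- liver, which enters only through the shared spread, brought Saa2 to an adjusted p of 0.0043. In a fit to the compared groups alone Saa2 passed (-1.60, adjusted p = 0.0128), beside 2.07% of genes. With array weights Saa2 and Saa4 passed (-1.72 and 0.59, adjusted p = 0.00283 and 0.0045), beside 21.1% of genes.

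Whether the deletion acted differently with and without Mdr2 was tested directly. For Saa4 the changes ran in opposite directions, 0.58 without the knockout and -0.49 with it, and their difference of -1.07 (interval -1.60 to -0.54, unadjusted p = 0.000818) had a limma adjusted p of 0.139. The difference was -2.08 for Saa2 (interval -3.54 to -0.62, adjusted p = 0.226), -1.57 for Orm1 (adjusted p = 0.303) and 0.04 for Saa3 (adjusted p = 0.966). None of the 4 passed, 2 of them had an unadjusted p under 0.05, and 0.0715% of tested genes were called. With no filter it was -1.94 for Saa1, -2.52 for Orm2 and -0.30 for Orm3 (adjusted p = 0.283, 0.265 and 0.544), beside 0.0301% of genes. Without array A of Stat3Fl/Fl Mdr2-/- liver the differences of Saa2 (-2.85, adjusted p = 0.0127) and, with no filter, of Saa1 (-2.76, adjusted p = 0.0189) and Orm2 (-3.46, adjusted p = 0.0189) passed, and without array A of Stat3Fl/Fl liver that of Saa4 was -1.27 (adjusted p = 0.0308).

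With Mdr2 loss in liver that kept Stat3, Saa2 was the tested member that passed. It rose by 2.12 on the log2 scale (interval 1.09 to 3.15, limma adjusted p = 0.0115), from a group with 1 of 3 arrays above the 40th percentile, so no fold is given. Orm1 was 1.17 higher (interval 0.03 to 2.32, adjusted p = 0.18) and Saa3 0.75 higher (interval 0.09 to 1.41, adjusted p = 0.133), and neither passed, while Saa4 differed by -0.02 (interval -0.40 to 0.35, adjusted p = 0.955). So 1 of 4 tested members rose, beside 12.8% of tested genes called, and ranges were apart for 1 of 4 against 33.3%. Here too, Saa2 met the condition for testing only through its 3 Stat3Fl/Fl Mdr2-/- arrays, the higher group, and 1 Stat3Fl/Fl array.

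With no filter, Orm2 rose by 2.52 on the log2 scale (adjusted p = 0.0178) and Saa1 by 1.93 (adjusted p = 0.0307), and Orm3 differed by 0.20 (adjusted p = 0.602), so that 3 of 7 rose beside 7.72% of genes. The Saa2 call was lost without array C of the knockout group (1.69, adjusted p = 0.0538). Saa1 was lost without array B or C of either group (adjusted p from 0.1 to 0.13), and Orm2 without any 1 of the 3 Stat3Fl/Fl arrays or array B of the knockout (0.0512 to 0.0605). Leaving out array A of the knockout group, the lowest of its 3, instead added Saa3 (1.07, adjusted p = 0.0404) and Orm1 (1.83, adjusted p = 0.0248), and Saa3 also passed without array A of Stat3Δhc Mdr2-/- liver (0.75, adjusted p = 0.046). With the Xist and Y-linked pattern as a covariate Saa2 was 1.73 higher (adjusted p = 0.504), and Saa1 and Orm2 were not called (0.567 and 0.465), as also with trend and robust eBayes (0.103 and 0.0777). The covariate is estimated from array A of Stat3Δhc Mdr2-/- liver, outside this comparison, and 0.73% of tested genes were called with it. It cannot show whether the rises go with Mdr2 loss or with the pattern. The mean of 8 skeletal muscle markers fell from between 8.77 and 9.52 without the knockout to between 5.62 and 6.16 with it, and all 8 passed in both Stat3 backgrounds. The exocrine pancreas mean ran from 5.32 to 10.18 without and 5.17 to 5.57 with it, none passing. Their part was not tested.

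With Mdr2 loss in Stat3Δhc liver no member passed as higher. Saa2 differed by 0.04 (interval -0.99 to 1.07, limma adjusted p = 0.96) and Orm1 by -0.39 (interval -1.54 to 0.75, adjusted p = 0.609). Saa1, Saa2 and Orm2 lay under the 40th percentile in all 6 of these arrays, so that small changes in them were not detectable. Saa4 fell 2.13-fold (log2 change -1.09, interval -1.46 to -0.71, adjusted p = 0.00137), and this call held without each array in turn. Saa3 was 0.79 higher (interval 0.13 to 1.45, adjusted p = 0.0898), close to its 0.75 in floxed liver, but did not pass. Hence 1 of 4 members fell, beside 17.4% of tested genes called, and ranges were apart for Saa3 and Saa4, 2 of 4 against 37.2%. With no filter, Saa1 and Orm2 each differed by -0.01 (adjusted p = 0.995) and Orm3 by -0.10 (adjusted p = 0.736), leaving 1 of 7 beside 11.7% of genes. The 2 comparisons of Mdr2 loss share no arrays, and the difference between them is the same contrast as the difference of the Stat3 effects given above, which no member passed.

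Other acute phase genes varied in how they moved with Mdr2 loss. Of 22 listed plasma proteins that rise in inflammation, 20 were tested, and 8 rose and 1 fell in floxed liver when Mdr2 was lost (median log2 change 0.07, against 0 over all genes). In Stat3Δhc liver 5 rose and 3 fell (median 0.04 against -0.02). The shares of all tested genes called in these comparisons were 12.8% and 17.4%. Lcn2, which encodes the iron-siderophore binding protein lipocalin 2, rose in both, by 2.70 (adjusted p = 2e-04) and 2.79 (adjusted p = 0.000131). Its values went from 8.36, 8.99 and 9.35 to 11.30, 11.61 and 11.90 in floxed liver and from 7.71, 7.88 and 8.25 to 11.46, 10.01 and 10.76 in Stat3Δhc liver, with no overlap. Lcn2 was singled out after its values were seen. Lrg1, a secreted leucine-rich glycoprotein, rose by 0.99 in floxed liver (adjusted p = 0.00982) and differed by -0.01 in Stat3Δhc liver (adjusted p = 0.969). With the Xist and Y-linked pattern as a covariate, Lcn2 was 1.63 higher in floxed liver and Lrg1 0.38 higher, and neither passed (adjusted p = 0.193 and 0.716). That covariate rests on array A of Stat3Δhc Mdr2-/- liver, outside the floxed comparison.

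**Figure D3:**
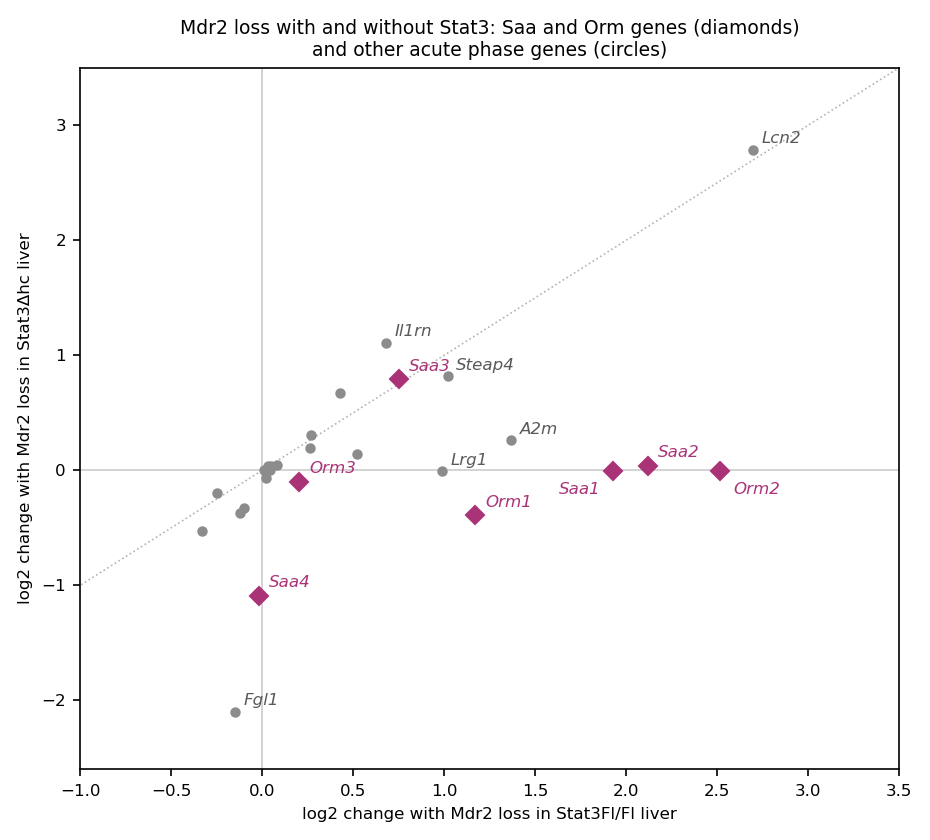
Log2 change with Mdr2 loss in Stat3Fl/Fl liver (horizontal axis) against that in Stat3Δhc liver (vertical axis), for the 7 Saa and Orm genes (diamonds) and the 20 tested acute phase genes (circles), with equal change on the dotted line. Saa1, Saa2 and Orm2 lie at 1.93, 2.12 and 2.52 across and near 0 up, where all 6 Stat3Δhc arrays lay under the 40th percentile. Lcn2 lies at 2.70 and 2.79.

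Under Stat3 deletion the same list had 8 genes lower and 0 higher on the Mdr2 knockout (median -0.27, against -0.03 over all genes) and 4 lower and 0 higher without it (median -0.26 against -0.01), beside 5.77% and 2.58% of tested genes called. Fgl1, which encodes a fibrinogen-like protein secreted by hepatocytes, fell by 4.48 and by 2.52 (adjusted p = 2.64e-07 and 5.97e-05). Its difference of -1.96 passed (adjusted p = 0.038), the single listed acute phase gene to do so. The call was lost in 8 of 12 fits without 1 array (adjusted p = 0.0516 to 0.111). With the pattern covariate the difference of Fgl1 was -2.16 and did not pass (limma adjusted p = 0.0857). Apcs, serum amyloid P, fell by 1.26 and 1.01 (adjusted p = 0.00156 and 0.00594). Itih4, an inter-alpha-trypsin inhibitor heavy chain, fell by 0.46 on the knockout (adjusted p = 0.00354) and differed by -0.24 without it (adjusted p = 0.0887), and Lrg1 fell by 1.34 (adjusted p = 0.00526) and differed by -0.34 (adjusted p = 0.494). On the knockout, Apcs, Itih4 and Lrg1 no longer passed with the pattern covariate (adjusted p = 0.0784, 0.115 and 0.204). Of 6 plasma proteins that fall in inflammation, such as Rbp4 and Trf, none passed in either Stat3 comparison, the difference or Mdr2 loss in floxed liver. With Mdr2 loss in Stat3Δhc liver Ttr fell by 0.36 (adjusted p = 0.0128), a call lost without array C of Stat3Δhc liver (0.0527). In floxed liver Ttr was also lower with Mdr2 loss and passed under some other settings, such as trend and robust eBayes (-0.26, adjusted p = 0.0202).

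The inducing pathway was read from its cytokines, receptors and transcription factors. Among 8 inducing cytokines 7 are on the array and 4 of them, Il6 included, lay under the 40th percentile in every array, so that their levels were not detectable here. The 3 tested, Il1a, Il1b and Tnf, passed in no comparison. Of 11 tested receptors and kinases, Lifr, the leukaemia inhibitory factor receptor, fell on Stat3 deletion with the Mdr2 knockout (by 0.46, adjusted p = 0.027), a call lost in 4 of the fits without 1 array, with the pattern covariate (0.502) and in the compared groups alone (0.0867). That is 1 of 11 beside 5.77% of tested genes, and 0 passed without the knockout beside 2.58%. With Mdr2 loss 5 rose and 0 fell in floxed liver, beside 12.8% of tested genes called, and 2 rose and 1 fell in Stat3Δhc liver, beside 17.4%. Il6st, which encodes gp130, rose by 0.63 and 0.53 (adjusted p = 0.00105 and 0.00281), and Osmr, the oncostatin M receptor, by 0.99 and 0.64 (adjusted p = 0.00233 and 0.0206).

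Of 10 tested transcription factors and feedback inhibitors, Stat3 alone passed in the Stat3 comparisons. Rela, an NF-κB subunit, rose with Mdr2 loss in floxed liver by 0.49 (adjusted p = 0.00885, and 0.471 with the pattern covariate), and the NF-κB inhibitor Nfkbia rose in both backgrounds by 0.56 and 0.58 (adjusted p = 0.0331 and 0.0246). Socs3, the feedback inhibitor of gp130 signalling, rose by 0.56 in Stat3Δhc liver (adjusted p = 0.0367), a call lost in 4 of 12 fits without 1 array, with the replicate block (0.0532), in the compared groups alone (0.056) and with the pattern covariate (0.0706). Among 10 receptors and lipoprotein partners of serum amyloid A and orosomucoid, 0 passed in the Stat3 comparisons or their difference. With Mdr2 loss 3 rose and 1 fell in floxed liver and 5 rose and 2 fell in Stat3Δhc liver, beside the same 12.8% and 17.4%, among them Tlr2, a serum amyloid A receptor, by 0.63 and 1.07 (adjusted p = 0.0045 and 0.000111). Il6st, Osmr, Nfkbia and Tlr2 were named after their values were seen. Their calls were not examined under the other settings, such as the pattern covariate or fits without 1 array.

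The genes most like each tested member over the 12 arrays, by Pearson's r of log2 signal, are given as a description, since arrays of a genotype share it. For Saa2 they were A2m (0.957), Slc17a9 (0.951) and Eif3c (0.948), and for Orm1 they were A2m (0.931), Ston1 (0.876) and Ablim3 (0.864). A2m, the acute phase protease inhibitor alpha-2-macroglobulin, thus headed both lists. For Saa3 they were Zfp950 (0.949), App (0.940) and Tut7 (0.939), and for Saa4 Mfsd4b3-ps (0.971), Bscl2 (0.967) and Paics (0.962). The r of Ablim3 with Orm1 ran from 0.665 to 0.946 when 1 array was left out.

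Upstream windows of 6 of the 7 genes were searched on both strands for 3 sets of letters. The STAT-type TTCNNNGAA matched in none of the 6 and in 7.0% of 32851 RefSeq windows of this length. The C/EBP-type letters matched in all 6 and in 9.6% of windows, with 2 matches in Saa4. An NF-κB-type motif, GGG and CC with any 5 bases between them, matched in Saa1, Saa2 and Saa4 and in 45.8% of windows, and no match overlapped another. Outside the 2 near-identical pairs, aligned windows shared 42.1 to 49.2% of bases. Saa1, Saa2 and Saa4 thus held both of these kinds of match, at different positions in Saa4. Saa3, Orm2 and Orm3 held only the C/EBP-type. Whether the matches bear on the levels of these genes was not tested.

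**Figure D4:**
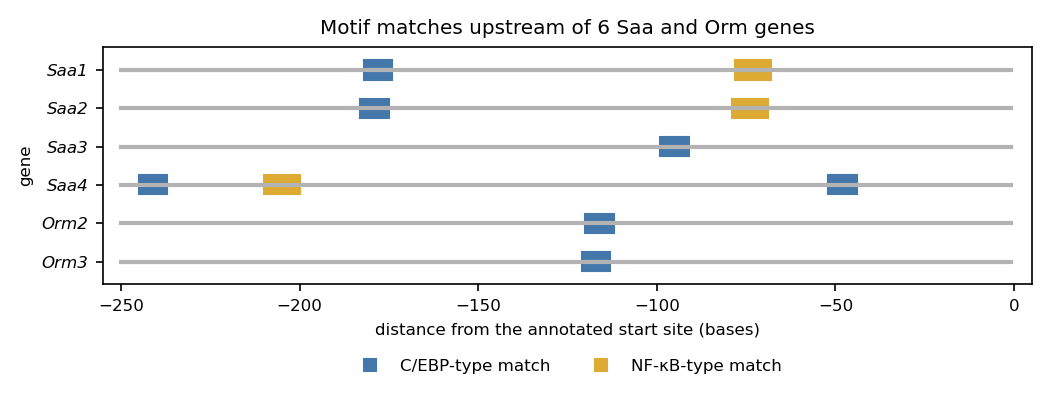
Positions of C/EBP-type and NF-κB-type matches in the 250 bases upstream of 6 genes, as distance in bases from the annotated start site (horizontal axis). Each of the 6 genes holds a C/EBP-type match, and Saa1, Saa2 and Saa4 hold an NF-κB-type match.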

How the data were processed

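Total RNA of whole liver was labelled with biotin and hybridised to Affymetrix mouse Gene 1.0 ST arrays. The deposited log2 values of 35556 transcript clusters come from RMA (version not stated), per the submitters' processing notes. Of the clusters, 21789 name 1 gene, 1621 several and 12146 none. The 3 arrays per genotype limit the precision.

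Testing was limited to the 13977 genes above the 40th percentile of the array in 3 or more arrays. The 5 comparisons used limma 3.58.1 (R 4.3.3), lmFit and eBayes on all 12 arrays, with Benjamini-Hochberg adjustment at 0.05 and 8 residual degrees of freedom; intervals are 95% and unadjusted for the number of genes. The script was tested on simulated data. Motifs and alignments used Biopython 1.88 and Python 3.11.15, and figures matplotlib 3.10.9. Upstream sequences are RefSeq's (GRCm38.p6). Probe sequences were not used here.

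Genes outside the 7 were named by rule: up to 4 per list with the smallest adjusted p for Stat3 deletion on Mdr2-/-, any that passed the difference, and the 3 most like each tested member. Exceptions are stated. The genes and lists were chosen with earlier results of these data known, so their directions are not independent evidence. Same-lettered arrays of different genotypes did not deviate together (mean r -0.032, 4 of 18 pairs over 0.1), so letters were not taken as pairs. Alternatives tried were other filters, averaging clusters, median centring, cyclic loess, array weights, trend and robust eBayes, a letter block, fits to the compared groups alone, an Xist and Y-linked covariate, and each array left out.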

Additional observations from a re-analysis of the deposited data

Results flagged for a closer look

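The 2 Stat3 effects went in opposite directions for Saa4, with every deleted array above the floxed arrays without the Mdr2 knockout and every deleted array below them with it. The difference was -1.07 on the log2 scale (limma adjusted p = 0.139). For Tnfrsf1a, the tumour necrosis factor receptor 1 gene, the changes were also opposite, 0.19 without the knockout and -0.18 with it, a difference of -0.37 (adjusted p = 0.224), so neither passed after adjustment. With array weights the differences of Saa4 and Tnfrsf1a passed (-0.94 and -0.47, adjusted p = 0.0249 and 0.0214), beside 4.06% of tested genes. That of Saa4 also passed without array A of Stat3Fl/Fl liver (-1.27, adjusted p = 0.0308). Fgl1 passed the test of the difference, at -1.96 (adjusted p = 0.038), both of its changes being falls. The call was lost in 8 of 12 fits without 1 array. With the Xist and Y-linked covariate the difference was -2.16 and did not pass (limma adjusted p = 0.0857). Groups of 3 arrays were too small to be examined for single outlying arrays.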

How the results depend on the processing

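For the 4 tested members 426 values were recomputed under other settings. Of these, 404 stayed on the same side of the threshold, 13 passed only then and 9 no longer passed. Most of the 426 belong to results that were not calls as reported, so the 9 losses fall on few calls. Saa1, Orm2 and Orm3 are not counted among the 426. The sign changed in 18 of the 426, 0 of which passed in either fit. Members called for Stat3 deletion on Mdr2-/- (2 as reported) numbered 4 with no filter, 0 with a 60th percentile filter, 1 with trend and robust eBayes, 1 with only the compared groups, 0 with the Xist and Y-linked covariate, and 1 to 2 without 1 array. Without the Mdr2 knockout (0 as reported) they numbered 2 with array weights, 1 with only the compared groups and 0 to 1 without 1 array, and for the difference (0 as reported) 2 with array weights and 0 to 1. For Mdr2 loss in floxed liver (1) they numbered 3 with no filter, 0 with the 60th percentile filter, 0 with the covariate and 0 to 3 without 1 array, and in Stat3Δhc liver (1) 2 with array weights and 1 without any 1 array. The replicate block changed none of these member counts (2, 0, 0, 1 and 1), nor did averaging clusters, cyclic loess or median centring, but with no filter the block took Saa1 to an adjusted p of 0.052 for Mdr2 loss in floxed liver. With the covariate Saa3 was 0.59 higher for Stat3 deletion on Mdr2-/- and 0.40 lower (-0.40) for Mdr2 loss in floxed liver, neither passing. Both values rest on array A of Stat3Δhc Mdr2-/- liver, where Saa3 read 8.04 against 6.96 and 6.81 in arrays B and C. The share of all genes called ranged from 0.265 to 16.4%, 0.494 to 21.1%, 0 to 4.06%, 0.73 to 17.9% and 8.27 to 41.7% for the 5 comparisons in that order, lowest with the covariate or an array left out and highest with array weights, or with the 60th percentile filter for Mdr2 loss in floxed liver. The 60th percentile filter left Saa2 and Orm1 untested. The cause of each change was otherwise not tested. The fits of Saa1, Orm2 and Orm3 with no filter together with another setting were chosen after seeing the data.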
